A study of Mus musculus with 10 samples.

Results

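The 8 genes described here make or control the MHC class II presentation machinery: H2-Aa, H2-Ab1, H2-Eb1, H2-DMa, H2-DMb1, H2-DMb2, Cd74 and Ciita. They were chosen by name for their function, not by a measured value, and each symbol had 1 row among the 55487 gene rows of the deposited table. All 8 were among the 13930 genes tested. The libraries were made from cells labelled as CD8+ T cells, sorted from MC38 tumours, which grow from a mouse colon carcinoma line. There were 5 libraries from mice with the S452A allele of Pep, the phosphatase encoded by Ptpn22, in which a serine is replaced by alanine, and 5 from WT mice. The labels number the mice 1 to 5 in each genotype and say nothing of pooling. S452A is the name on the samples; the description of the design has S425A in its place. Mice of both genotypes received the tumour cells at 8 weeks of age, and the tumours were taken and digested with collagenase 18 days later. Strain, sex and the making of the allele are not stated in the labels, and TPM values cannot check which allele a library carries.

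MHC class II molecules are pairs of an alpha and a beta chain that carry peptides from the endosomes to the cell surface, where CD4+ T cells read them. In mice the main pair is I-A, made from H2-Aa and H2-Ab1, and a second beta chain, of I-E, comes from H2-Eb1. Cd74 encodes the invariant chain, which holds newly made class II molecules and guides them to endosomes, and H2-DM, an alpha and beta pair from H2-DMa with H2-DMb1 or H2-DMb2, exchanges the remaining invariant chain fragment for a peptide. Ciita encodes the transactivator that switches these genes on together, through factors bound to shared promoter boxes. Dendritic cells, B cells and activated macrophages are the usual sources of these transcripts, and resting mouse T cells make little of them.

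The content of the libraries bears on every value below. The labelled cell type was poorly represented in both genotypes: 8 T cell receptor and CD8 genes summed to 14.96 to 134.7 TPM (a gene's length-corrected share of the transcripts in a library, which keeps no record of sequencing depth) in S452A libraries and to 12.1 to 125.7 TPM in WT libraries. The 14 macrophage and monocyte markers summed to 19416 to 24760.1 TPM in S452A libraries and to 18744 to 25534 TPM in WT libraries. The 11 dendritic cell markers, of which Itgax and Clec10a are also made by macrophages, summed to 131 to 187 TPM in S452A libraries and to 125 to 168 TPM in WT libraries. Most of that sum came from Itgax, at 59.9 to 100.09 TPM, and Ccr7, at 33.7 to 77.7 TPM. Batf3 was at 4.94 to 20.99 TPM and Cd207 at 1.65 to 12.3 TPM, while Xcr1 was at 0.89 to 5.52 TPM, Clec9a at up to 1.64 TPM and Flt3 at up to 0.79 TPM. The 7 B cell markers summed to 3.72 to 22.03 TPM in S452A libraries and to 5.09 to 14.6 TPM in WT libraries, with the B cell receptor chains Cd79b at 2.66 to 13.6 TPM and Cd79a at up to 2.37 TPM. In bulk libraries such as these, fewer cells of a type and less RNA per cell cannot be told apart.

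Class II transcripts were abundant in both genotypes, and they fell into 3 levels. Cd74, on chromosome 18 of GRCm38 (60803848 to 60812652, plus strand), was at 786, 1075, 1079, 393 and 867 TPM in S452A libraries 1 to 5, against 595, 865, 990.2, 856 and 596 TPM in WT libraries 1 to 5. H2-Ab1 was at 542, 1164, 962, 352 and 814 TPM in S452A libraries, against 597, 689, 860.3, 822 and 538 TPM in WT libraries. In both genes S452A libraries 2 and 3 were the highest of their group and S452A library 4 was the lowest of all 10, and the genotypes overlapped.

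H2-Aa, the partner chain of H2-Ab1, was at 552, 981, 952, 360.4 and 845 TPM in S452A libraries, against 572, 613, 805, 797 and 537 TPM in WT libraries. H2-Eb1 was at 525, 965, 888, 338 and 718 TPM in S452A libraries, against 557, 530.5, 854, 759.6 and 485 TPM in WT libraries. Again S452A library 4 was lowest and the WT libraries lay inside the range of the S452A libraries. Together these 4 genes lay at the 98.1 to 98.4 percentile of mean TPM among the tested genes.

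The H2-DM genes formed the second level. H2-DMb1 was at 99.3, 119.7, 94.2, 55.3 and 116 TPM in S452A libraries, against 88.4, 105, 85.3, 109.9 and 80.6 TPM in WT libraries. H2-DMa was at 87.7, 94.6, 99.1, 67.2 and 116 TPM in S452A libraries, against 117, 101, 98.3, 89.0 and 78.0 TPM in WT libraries. S452A library 4 was once more the lowest, while the highest H2-DMa value was that of WT library 1.

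At the third level stood the second beta chain of H2-DM and the transactivator. H2-DMb2 was at 7.49, 3.13, 5.68, 2.22 and 7.43 TPM in S452A libraries, against 11.3, 6.96, 4.53, 5.03 and 4.88 TPM in WT libraries. Ciita was at 2.09, 2.87, 5.50, 2.04 and 3.28 TPM in S452A libraries, against 2.04, 1.95, 2.54, 3.46 and 1.84 TPM in WT libraries. WT library 1 stood highest for H2-DMb2 and S452A library 3 for Ciita, and the genotypes overlapped for both genes.

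**Figure D1:**
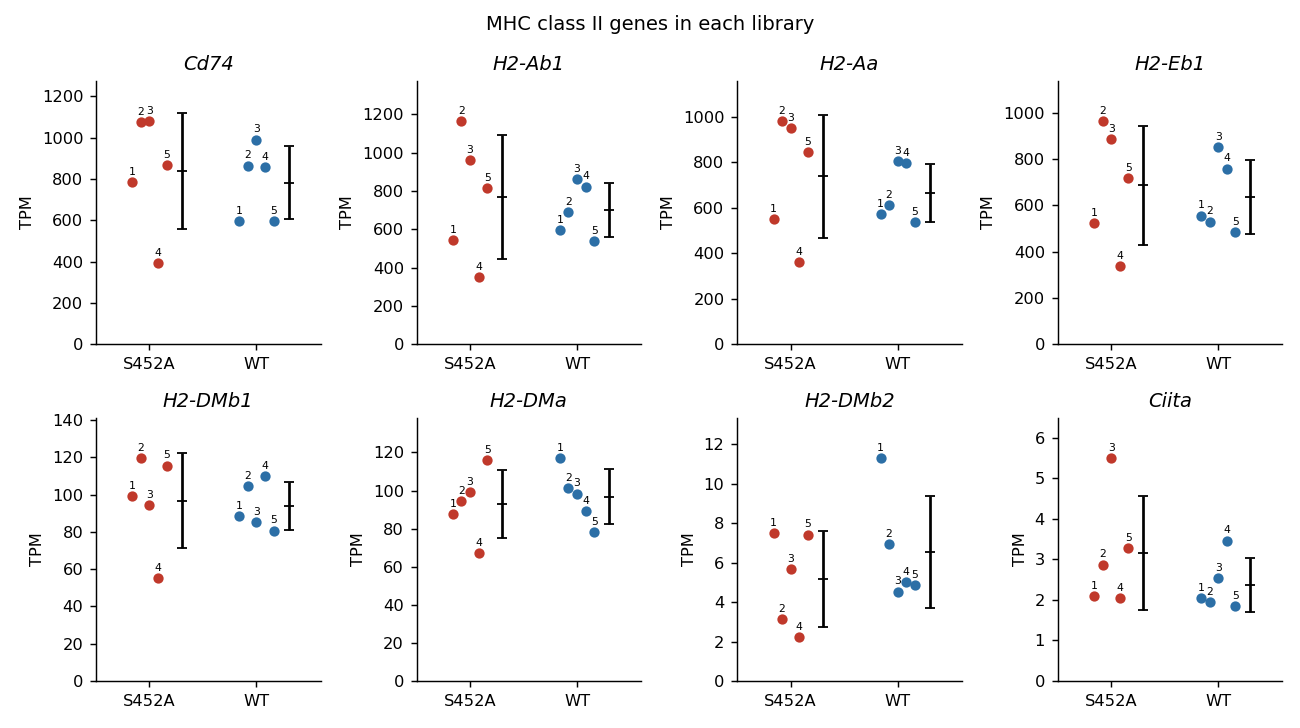
TPM of the 8 class II genes in each library, S452A left and WT right, on linear axes from 0. Points are libraries, numbered by mouse; the black mark with bars beside each group is the mean ± SD of 5 libraries. S452A library 4 is the lowest point in the panels of Cd74, H2-Ab1, H2-Aa, H2-Eb1, H2-DMb1, H2-DMa and H2-DMb2.

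Because TPM is scaled to gene length, genes can be ranked within a library. A bias of a gene's TPM that is alike in every library stays in such a ranking. Neighbours in the order of mean TPM were compared by the log2 ratio of their TPM in the same library, with a 2-sided exact sign-flip permutation test over the 10 libraries, adjusted over 7 neighbours. Cd74 exceeded H2-Ab1 by 1.11-fold on average, in 8 of 10 libraries (exact p = 0.0156, adjusted p = 0.0219). H2-Ab1 and H2-Aa were not separated (1.04-fold, higher in 7 of 10 libraries, exact p = 0.127, adjusted p = 0.148). H2-Aa exceeded H2-Eb1 by 1.06-fold, in 9 of 10 libraries (exact p = 0.0137, adjusted p = 0.0219). The test measures how repeatable a ratio of TPM is over libraries. As the order was set by the mean TPM of these same libraries, the test is no separate support for the order or the levels. Ratios as small as these cannot settle which transcript is the more abundant.

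The step from H2-Eb1 down to H2-DMb1 was 6.77-fold (5.07-fold to 10.01-fold in single libraries), and that from H2-DMa down to H2-DMb2 was 17.5-fold. Each step was seen in 10 of 10 libraries, with the smallest p the exact test can give (0.00195, adjusted p = 0.00456). H2-DMb1 and H2-DMa were not separated (ratio 0.997 on average, 5 of 10 libraries each way, exact p = 0.949). Ciita was last, 2.06-fold below H2-DMb2 on average and below it in 10 of 10 libraries, although the ratio was as small as 1.03-fold in 1 library.

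The second H2-DM beta chain was a small part of the beta chain transcripts. H2-DMb2 made up 5.03 ± 1.80% of the summed H2-DMb1 and H2-DMb2 TPM in S452A libraries and 6.54 ± 2.78% in WT libraries (SD, n = 5 each, 2-sided exact permutation p = 0.381). The transcripts of these neighbouring genes are 95.7% identical over 1081 aligned bases, 77.0% of the shorter one, so reads can be shared between them and the lower value is uncertain. With both beta chains summed, the ratio of beta to alpha H2-DM transcripts was 1.09 ± 0.17 in S452A libraries and 1.05 ± 0.17 in WT libraries (SD, n = 5 each). H2-Ab1 and H2-Eb1, the I-A and I-E beta chains, share 76.4% over their best aligned stretch of 636 bases.

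The I-E alpha chain gene had no TPM. H2-Ea-ps, annotated as a polymorphic pseudogene, was listed at 0 in all 10 libraries, while its partner beta chain gene H2-Eb1 averaged 687 ± 258 TPM in S452A libraries and 637 ± 160.4 TPM in WT libraries (SD, n = 5 each). In mice of the H2b haplotype, which C57BL/6 mice carry, the alpha gene has lost its promoter and no I-E reaches the cell surface. The gene order is compact: on chromosome 17 of GRCm38, H2-DMa begins at 34119541, H2-DMb2 at 34143307 and H2-DMb1 at 34153072 on the plus strand. H2-Ab1 follows at 34257689 and H2-Eb1 at 34305867, also on the plus strand, and H2-Aa lies between them on the minus strand, from 34282744 to 34287823. Ciita is on chromosome 16 (10480059 to 10528418, plus strand).

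The promoters of class II genes carry an X box and a Y box, the sites through which Ciita acts, and 4 of them are shown because these genes share that layout while their mean levels in S452A libraries spanned 5.19 TPM for H2-DMb2 to 738 TPM for H2-Aa. Windows of 250 bases before to 50 after the transcription start were taken from RefSeq (GRCm38.p6). RefSeq had windows for 5 of the 8 genes, and they are written on the strand of the gene. For H2-DMa, H2-DMb1 and H2-DMb2 the RefSeq starts lie inside the gene as annotated by GENCODE. Capitals mark the matches to 3 motifs, searched on both strands: ACNNATGAT for the X box, TGACGTCA for the cyclic AMP response element that can form the rear of the X box, and TGATTGG for the Y box, none of which overlap in these windows. The X box letters were set after the windows had been read.
H2-Aa (chr17:34287774-34288073, minus strand): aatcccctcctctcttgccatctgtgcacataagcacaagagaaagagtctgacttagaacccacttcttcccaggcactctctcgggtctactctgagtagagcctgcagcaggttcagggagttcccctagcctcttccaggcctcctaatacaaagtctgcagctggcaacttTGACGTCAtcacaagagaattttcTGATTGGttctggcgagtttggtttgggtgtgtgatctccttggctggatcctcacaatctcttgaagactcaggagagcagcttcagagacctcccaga
H2-Eb1 (chr17:34305617-34305916, plus strand): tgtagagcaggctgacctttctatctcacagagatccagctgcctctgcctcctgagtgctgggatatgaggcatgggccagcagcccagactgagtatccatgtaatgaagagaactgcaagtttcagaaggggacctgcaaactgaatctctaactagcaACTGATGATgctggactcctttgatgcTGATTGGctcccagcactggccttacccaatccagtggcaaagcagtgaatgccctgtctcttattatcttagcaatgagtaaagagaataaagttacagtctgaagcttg
H2-DMb1 (chr17:34152941-34153240, plus strand): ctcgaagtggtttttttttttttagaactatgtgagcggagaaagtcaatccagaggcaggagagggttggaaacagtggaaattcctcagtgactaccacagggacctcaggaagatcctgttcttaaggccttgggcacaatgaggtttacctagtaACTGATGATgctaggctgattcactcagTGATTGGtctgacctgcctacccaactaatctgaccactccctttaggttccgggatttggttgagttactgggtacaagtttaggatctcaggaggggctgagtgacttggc
H2-DMb2 (chr17:34144999-34145298, plus strand): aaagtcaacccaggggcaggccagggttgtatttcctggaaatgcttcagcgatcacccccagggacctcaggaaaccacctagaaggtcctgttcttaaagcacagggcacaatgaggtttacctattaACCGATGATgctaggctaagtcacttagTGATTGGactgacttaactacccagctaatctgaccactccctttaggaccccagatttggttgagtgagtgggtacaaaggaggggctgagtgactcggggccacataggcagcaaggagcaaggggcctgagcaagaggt

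The 4 windows were chosen for a Y box motif preceded by the X box motif or the response element, so this layout is a description of them and no finding; H2-Aa has no match to the X box motif. The gap between the motifs was 16 to 19 bases. With the start base counted as 0, the response element of H2-Aa began at -74 and its Y box motif at -50. The X box motif and the Y box motif began at -88 and -61 in H2-Eb1, at -91 and -63 in H2-DMb1, and at -120 and -92 in H2-DMb2. Among all 32851 RefSeq windows of this length, 2.08% held the X box motif, 1.79% the response element and 7.82% the Y box motif, while 0.24% held both the X box and Y box motifs and 0.152% both the response element and the Y box motif. The 2 windows of H2-DMa, at RefSeq starts inside that gene, held none of the 3 motifs, and its GENCODE start was not searched. These shares are given for scale, and nothing about the 4 genes is drawn from them. A match describes letters and does not show that a factor binds there.

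**Figure D2:**
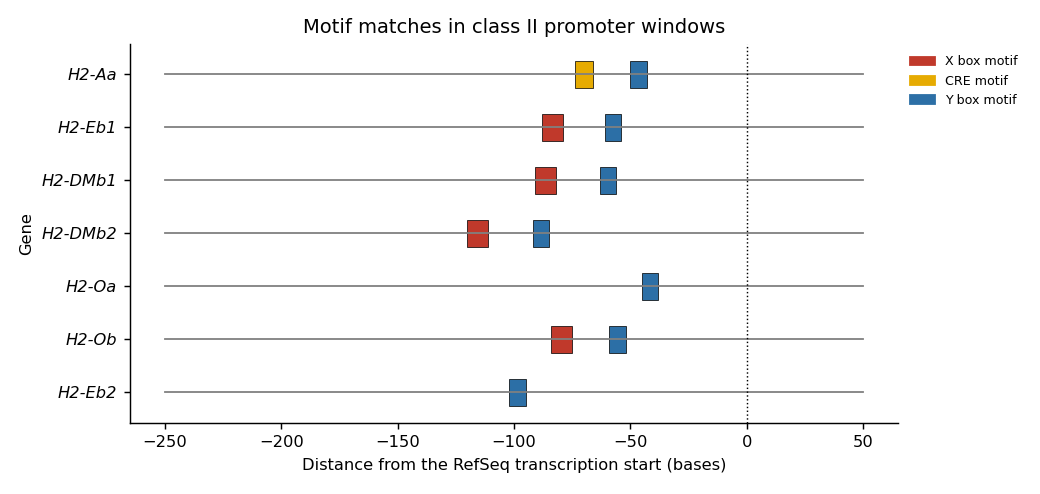
Matches to the X box motif (red), the cyclic AMP response element (yellow) and the Y box motif (blue) in RefSeq windows of 7 class II genes, drawn as distance in bases from the transcription start (dotted line at 0). In H2-Aa, H2-Eb1, H2-DMb1, H2-DMb2 and H2-Ob a red or yellow box precedes a blue one by 16 to 19 bases; H2-Oa and H2-Eb2 show the Y box motif alone.

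Between libraries, 4 of the genes varied together closely. Pearson correlations of log2(TPM + 1) over the 10 libraries were 0.914 to 0.985 for the 6 pairs among Cd74, H2-Ab1, H2-Aa and H2-Eb1. The closest pair was H2-Ab1 and H2-Aa, the 2 chains of I-A (r = 0.985, permutation p = 1e-05, the smallest that 100000 resamples can give, adjusted p = 0.00014 over 28 pairs; Spearman rho = 0.964, adjusted p = 0.00056). All 6 pairs passed by Pearson and by Spearman. Leaving out the 2 libraries farthest from the median of the more abundant gene gave r of 0.855 to 0.976, and without S452A library 4, the lowest, r was 0.842 to 0.971. The within-library ratios were narrower than the genes: H2-Ab1 over H2-Aa had a coefficient of variation of 6.77% and H2-Eb1 over H2-Aa of 6.41%, against 29.0% for H2-Aa alone. Cd74 over H2-Aa was wider, with a coefficient of variation of 12.4%.

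Over all 28 pairs, 13 had an r of at least 0.7 and the median r was 0.66, where 2.35% of all pairs of tested genes reached 0.7 and the median was 0.011. The count was 8 without S452A library 4 and 11 to 16 without any other library. With the genotype means removed, 13 pairs reached 0.7.

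**Figure D3:**
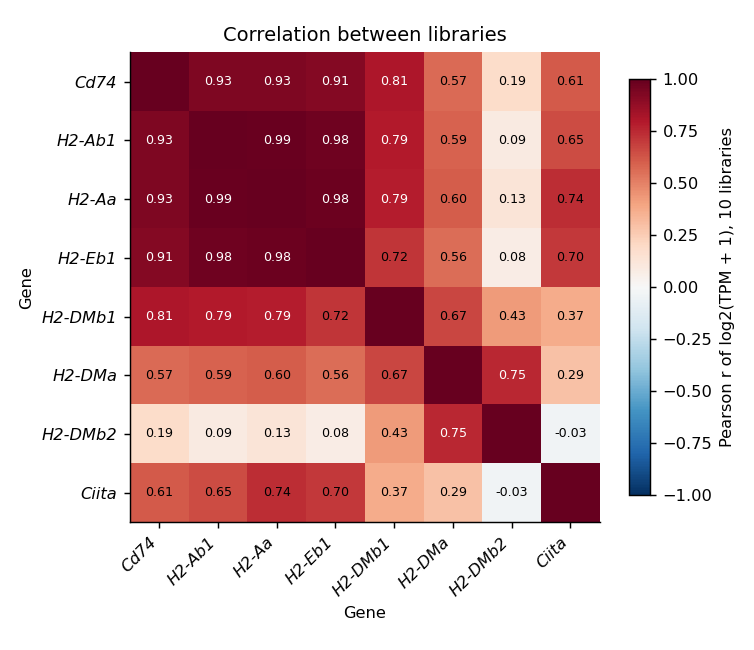
Pearson correlation of log2(TPM + 1) over the 10 libraries for each pair of the 8 class II genes, with r printed in each square. The block of Cd74, H2-Ab1, H2-Aa and H2-Eb1 runs from 0.91 to 0.99, and the H2-DMb2 row is near 0 against these 4 genes (0.08 to 0.19).

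The H2-DM genes followed the 4 less closely. H2-DMb1 had r of 0.717 to 0.812 with them, and all 4 pairs passed (adjusted p 0.0249 to 0.0405), but no pair passed by Spearman. Without the 2 libraries farthest from the median, r was 0.191 to 0.441, so that relation rests on those libraries. H2-DMa had r of 0.56 to 0.604 with the 4, and none of these pairs passed. H2-DMb2 had r of 0.076 to 0.186 with them, and -0.302 to -0.419 without the 2 farthest libraries, none passing. Its 1 correlation that passed was with H2-DMa (r = 0.754, permutation p = 0.0122, adjusted p = 0.0342), with rho = 0.624 (adjusted p = 0.14) and r = 0.581 or 0.324 without the 2 libraries farthest from the median of H2-DMa or of H2-DMb2.

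Ciita, though low in level, correlated by Pearson with some of the genes it regulates, but none of its pairs passed by Spearman. It had r = 0.736 with H2-Aa (permutation p = 0.0142, adjusted p = 0.0362; rho = 0.754, adjusted p = 0.0526) and r = 0.704 with H2-Eb1 (permutation p = 0.0197, adjusted p = 0.0425; rho = 0.76, adjusted p = 0.0526). With H2-Ab1 and Cd74 r was 0.654 and 0.61, which did not pass. Leaving out the 2 libraries farthest from the median of the target gave r of 0.648 to 0.899 for these 4 pairs. Without the 2 farthest from the median of Ciita, r was 0.592 to 0.776. H2-Aa stood at 173 to 342 times the TPM of Ciita, with the lowest ratio in S452A library 3, where Ciita was highest. With H2-DMa and H2-DMb2 r was 0.291 and -0.034.

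**Figure D4:**
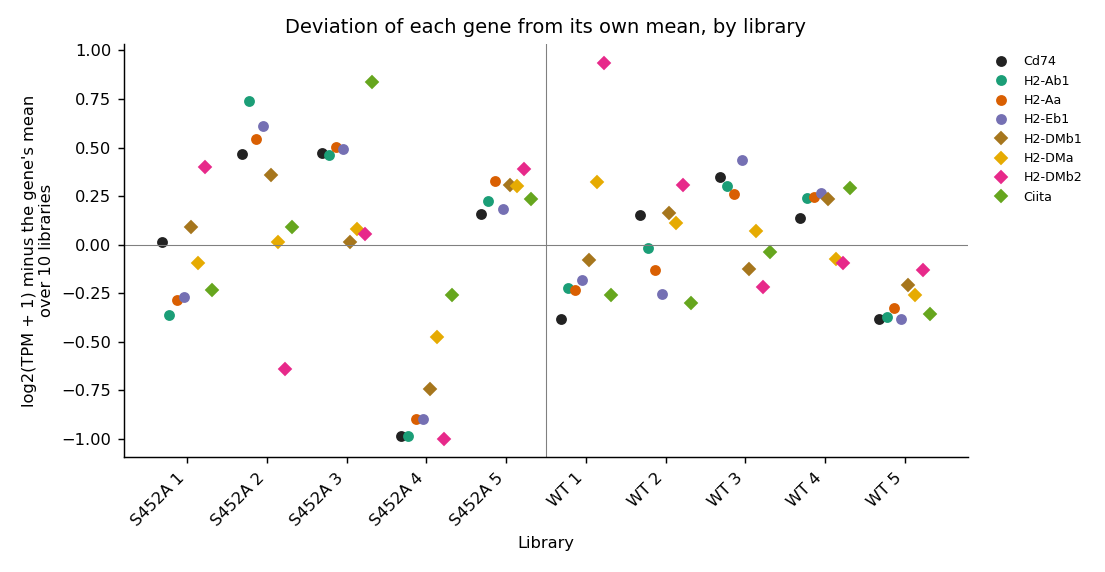
Log2(TPM + 1) of each gene minus its own mean over the 10 libraries, S452A libraries left and WT libraries right. Circles are Cd74, H2-Ab1, H2-Aa and H2-Eb1, all lowest in S452A library 4. Cd74 stands above the other circles in S452A library 1 and WT library 2. Diamonds are the H2-DM genes and Ciita, with H2-DMb2 (pink) apart in S452A library 2 and WT library 1.

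The classical class II genes had a larger spread between libraries than MHC class I genes. The SD of log2(TPM + 1) over the 10 libraries was 0.45 to 0.50 for Cd74, H2-Ab1, H2-Aa and H2-Eb1, at the 77.5 to 82.5 percentile of all tested genes. It was 0.17 for B2m, the light chain of class I, at the 12.1 percentile, and 0.27 and 0.21 for the class I heavy chains H2-K1 and H2-D1. These are descriptions, and the difference in spread was not tested. S452A libraries were the wider group for each of the 4 class II genes, with H2-Aa at a coefficient of variation of 36.7% in S452A libraries and 19.1% in WT libraries, which also was not tested. That width rests in part on S452A library 4. Without it the coefficient of variation in S452A libraries was 23.6% for H2-Aa, 30.1% for H2-Ab1 and 25.3% for H2-Eb1. In WT libraries it was 19.1%, 19.9% and 25.2%, so H2-Aa and H2-Ab1 stayed wider in S452A libraries. For Cd74 it was 15.6% in S452A libraries without library 4, below the 22.7% in WT libraries.

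No list of cell type markers passed a correlation with the class II genes. The mean of the 8 class II genes was compared with the means of 7 marker lists, adjusted over the 7 lists (adjusted p 0.376 to 0.863 by Pearson, 0.208 to 0.811 by Spearman). The largest r was 0.57, for neutrophil markers (0.513 without the 2 farthest libraries). Of the 4 genes of that list, Ly6g was at 0 in all 10 libraries. The r was 0.532 for T cell markers (0.696 without the 2 farthest libraries), 0.477 for dendritic cell markers (0.497) and 0.0633 for macrophage and monocyte markers (0.625). S452A library 4, lowest in class II, had a macrophage marker mean of 8.96 on the log2(TPM + 1) scale, inside the 8.81 to 9.10 of all libraries. The part of these cells in the class II levels was not tested.

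H2-DO, made from H2-Oa and H2-Ob, is the natural inhibitor of H2-DM and is found mainly in B cells. H2-Ob, the beta chain, was at 2.66, 2.14, 2.83, 3.94 and 6.45 TPM in S452A libraries, against 10.5, 2.65, 3.76, 1.86 and 2.57 TPM in WT libraries. The highest values were those of S452A library 5 and WT library 1. In these same libraries the mean of the B cell markers was 1.59 and 1.46 on the log2(TPM + 1) scale, against 0.45 to 0.65 in the other 8 libraries. H2-DMb2 was highest in WT library 1 too, with S452A libraries 1 and 5 next. As the B cell markers separate 2 libraries from the rest, no correlation is given, and their part in the levels of H2-Ob and H2-DMb2 was not tested.

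H2-Oa, the alpha chain, was at 0.96, 3.15, 3.57, 0.73 and 2.15 TPM in S452A libraries, against 4.22, 1.56, 1.89, 2.15 and 0.99 TPM in WT libraries. S452A library 4 was lowest here too, and WT library 1 highest. It had r = 0.738 with the mean of the 8 class II genes (permutation p = 0.00899, adjusted p = 0.202 over 45 pathway genes; 0.929 without the 2 farthest libraries), and H2-Ob had r = -0.0637. H2-Eb2, a further beta chain gene of the region, reached at most 0.58 TPM and was not tested.

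No class II gene passed the test between genotypes. In limma on log2(TPM + 1), adjusted over all 13930 tested genes, 0 of the 8 genes passed, and the unadjusted p was under 0.05 for 0 of them, where 0.00718% of all tested genes passed (1 gene, the predicted gene Gm36079, not of this pathway). The genotypes overlapped for all 8 genes, where they did not overlap for 0.646% of tested genes. The differences, S452A minus WT, had a median of 0.04 on the log2 scale for the 8 genes, against -0.02 over all tested genes.

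Cd74 averaged 839.8 ± 281 TPM in S452A libraries and 780.4 ± 177 TPM in WT libraries (SD, n = 5 each), which is 0.05 apart in log2 with an SE of 0.26 (interval -0.51 to 0.61 at 95%; adjusted p = 0.992 in limma). H2-Ab1 averaged 767 ± 324 and H2-Aa 738 ± 271 TPM in S452A libraries, against 701 ± 139 and 665 ± 127 TPM in WT libraries, with log2 differences of 0.03 (-0.58 to 0.64) and 0.08 (-0.48 to 0.63). The difference was 0.05 for H2-Eb1 (-0.53 to 0.63), 0.01 for H2-DMb1 (-0.41 to 0.42) and -0.07 for H2-DMa (-0.39 to 0.26). For these 6 genes the limma adjusted p was at least 0.973 and the exact permutation p at least 0.675.

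The widest differences were those of the low genes. Ciita averaged 3.16 ± 1.41 TPM in S452A libraries and 2.37 ± 0.67 TPM in WT libraries (SD, n = 5 each), which is 0.27 apart in log2 with an SE of 0.24 (interval -0.25 to 0.79 at 95%; adjusted p = 0.952 in limma). H2-DMb2 averaged 5.19 ± 2.43 TPM in S452A libraries and 6.54 ± 2.83 TPM in WT libraries (SD, n = 5 each), which is -0.32 apart in log2 with an SE of 0.31 (interval -1.002 to 0.36 at 95%; adjusted p = 0.955 in limma). For 7 of the 8 genes, H2-DMb2 aside, the interval lay between -1 and 1, which leaves out a 2-fold change on this scale; the scale understates changes of low genes. The sign was not stable for the other 6: with 1 library left out the difference ran from -0.051 to 0.31 for H2-Aa and from -0.15 to 0.042 for H2-DMa.

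The mean of the dendritic cell markers was 2.43 ± 0.11 in S452A libraries and 2.25 ± 0.14 in WT libraries on the log2(TPM + 1) scale (SD, n = 5 each, exact permutation p = 0.0873, adjusted p = 0.204 over 7 lists). With that mean as a covariate the differences turned to -0.46 for Cd74, -0.39 for H2-Ab1, -0.30 for H2-Aa, -0.38 for H2-Eb1 and -0.26 for H2-DMb1, none of which passed. All 11 dendritic cell markers weigh equally in that mean, though only 7 were high enough to be tested. Itgax (71.9 against 77.6 TPM), Zbtb46 and Cd209a averaged lower in S452A than in WT libraries. The other markers averaged higher, among them Cd207 (6.01 against 2.99 TPM). The fibroblast marker mean was 3.66 ± 0.38 in S452A libraries and 4.23 ± 0.36 in WT libraries (exact permutation p = 0.0317, adjusted p = 0.204). None of the 7 lists passed, and their part in the class II differences was not tested.

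The proportions between class II genes were also compared. Cd74 over H2-Aa was 1.15 ± 0.16 in S452A libraries and 1.17 ± 0.15 in WT libraries, and H2-Ab1 over H2-Aa was 1.02 ± 0.09 in S452A libraries and 1.05 ± 0.05 in WT libraries (SD, n = 5 each). Of 8 such ratios none passed the 2-sided exact permutation test (smallest p = 0.246, for H2-Aa over Ciita; adjusted p = 0.825 for each).

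The rest of the pathway gave no call either. Of 47 other genes of class II presentation, its regulation, costimulation and class I found in the table, 45 were tested, and limma called 0 higher and 0 lower in S452A (smallest adjusted p = 0.952, 1 gene with an unadjusted p under 0.05). Their differences were above 0 for 28 and below 0 for 17, with a median of 0.07, against 6496 of 13930 above 0 among all tested genes. For 1 of the 45 the genotypes did not overlap, where 0.646% of all tested genes had groups that did not overlap and 660 of 13930 had an unadjusted p under 0.05.

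The enzymes that process antigens and trim the invariant chain were abundant. Ctss, cathepsin S, which makes the last cuts in the invariant chain, was at 1988 ± 281 TPM in S452A libraries and 2012 ± 209.5 TPM in WT libraries (SD, n = 5 each). Lgmn, the endosomal protease legumain, was at 1071 ± 102 TPM in S452A libraries and 1110.02 ± 82.2 TPM in WT libraries, and Ifi30, the thiol reductase of antigen processing, at 550.4 ± 108 TPM in S452A libraries and 514 ± 54.6 TPM in WT libraries. March1, the ubiquitin ligase that removes class II from the surface, was at 11.8 ± 3.53 TPM in S452A libraries and 13.2 ± 2.30 TPM in WT libraries. Differences of the 10 genes of this list were above 0 for 5 and below 0 for 5. None of them passed a correlation with the mean of the 8 class II genes (Ctss r = 0.442, permutation p = 0.203, adjusted p = 0.657). Over the list r ran from -0.549, for cathepsin D (Ctsd), to 0.500, for March1, with a median of 0.158.

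The factors that bind the class II promoter ranged from the level of H2-DMb2 upwards. Of the X box complex RFX, the subunit Rfx5 was at 5.87 ± 2.44 TPM in S452A libraries and 5.58 ± 2.04 TPM in WT libraries, and Rfxap at 29.5 ± 1.501 TPM in S452A libraries and 27.0 ± 7.76 TPM in WT libraries (SD, n = 5 each). The highest was Nfya, a subunit of the Y box complex NF-Y, at 55.9 ± 12.97 TPM in S452A libraries and 50.3 ± 11.6 TPM in WT libraries (SD, n = 5 each). Rfxank, the remaining RFX subunit, was the gene whose genotypes did not overlap, at 7.26, 7.41, 7.91, 7.39 and 7.60 TPM in S452A libraries, against 5.82, 6.32, 6.78, 3.86 and 7.19 TPM in WT libraries. Its log2 difference was 0.31 (SE 0.16, limma adjusted p = 0.952), and its lowest S452A value, 7.26 TPM, stood next to its highest WT value, 7.19 TPM. None of the 7 promoter factors passed a correlation with the mean of the 8 class II genes.

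Interferon gamma is the main inducer of Ciita outside professional presenting cells. Ifng itself was at 2.74 ± 3.57 TPM in S452A libraries and 2.48 ± 1.496 TPM in WT libraries, and Irf1, an interferon-induced factor that acts at the Ciita promoter, at 155 ± 23.9 TPM in S452A libraries and 152 ± 45.4 TPM in WT libraries (SD, n = 5 each). Over libraries, Tap1, the peptide transporter of class I, had r = 0.776 with the mean of the 8 class II genes (permutation p = 0.00542, adjusted p = 0.202). Its Spearman rho was 0.697 (permutation p = 0.0304, adjusted p = 0.342). B2m had r = 0.537 (rho = 0.855, adjusted p = 0.0657), and Irf1 had r = 0.0422. The median r was 0.244 over the 8 genes listed for the interferon gamma route and 0.426 over the 6 class I genes. None of the 45 genes passed this family of correlations.

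Costimulatory genes had differences above 0 in 4 of 4 members, with a median of 0.24. Cd80, a ligand of CD28 and CTLA-4, was at 22.2, 18.5, 28.5, 18.1 and 21.8 TPM in S452A libraries, against 12.5, 8.88, 13.4, 18.2 and 15.01 TPM in WT libraries. WT library 4 alone reached into the S452A range. The log2 difference was 0.66 (SE 0.19, 95% interval 0.26 to 1.06, limma unadjusted p = 0.00388, adjusted p = 0.952), so it did not pass over all genes. Cd86, its partner ligand, differed by 0.22, Cd40 by 0.25 and Cd83, which stabilizes class II at the surface, by 0.15.

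**Figure D5:**
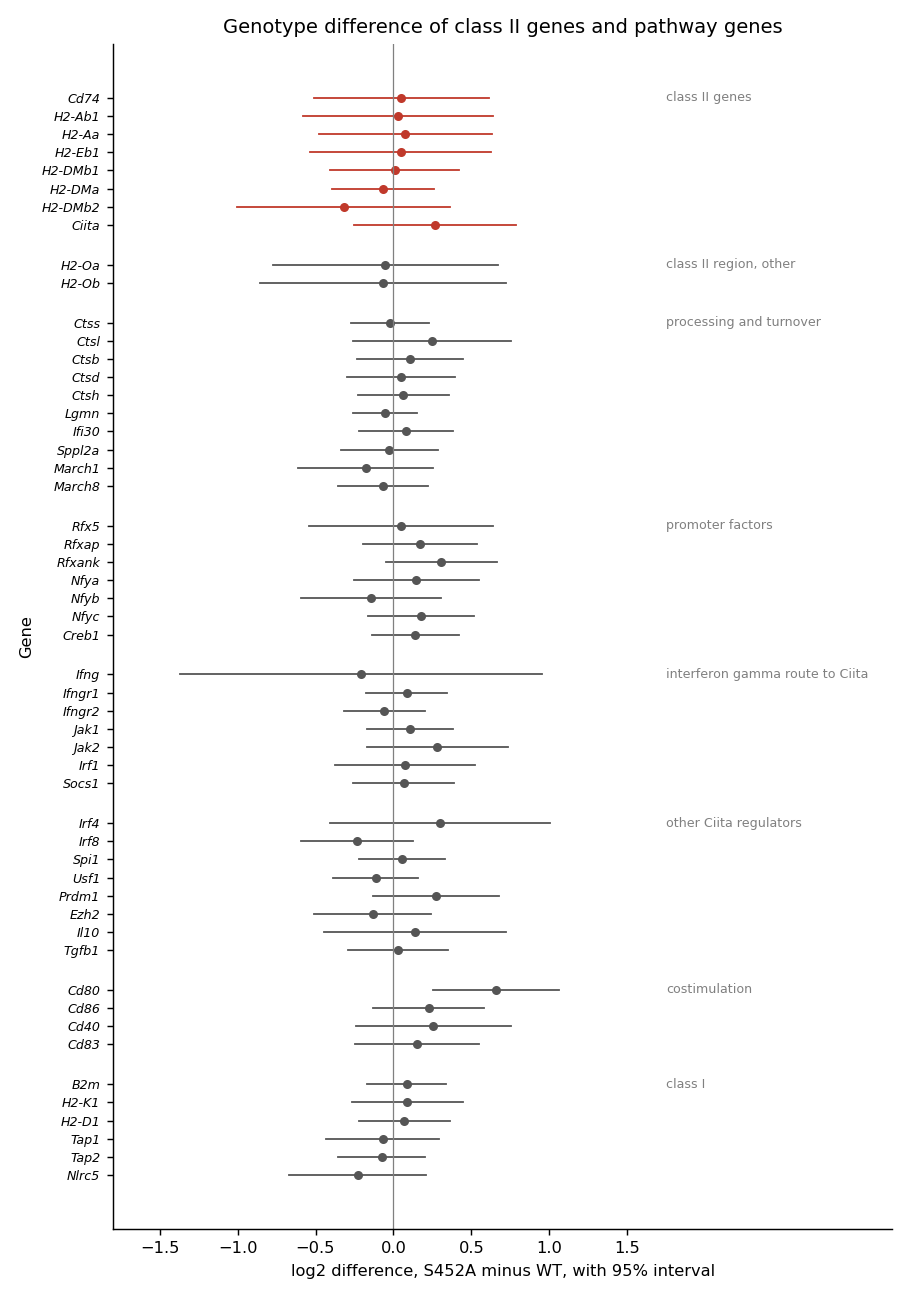
Log2 difference, S452A minus WT, with its 95% interval, for the 8 class II genes (red) and other tested pathway genes (grey), grouped by role. Every red interval crosses 0, and Cd80 is the grey gene with an interval, 0.26 to 1.06, above 0.

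Genes outside the list with the most similar pattern were sought by the Pearson r of log2(TPM + 1) with the mean of the 8 class II genes over the 10 libraries. Of 13922 other tested genes, 0.941% had an r of at least 0.7. Among the 10 closest were Znhit1 (r = 0.893), Osbpl7 (0.884), Tgtp1 (0.860, an interferon-induced GTPase with a near-identical neighbour, Tgtp2, so its value is uncertain), Dph3 (0.860), Sdhaf2 (0.851), Faim (0.851), Ly6i (0.847), G430095P16Rik (0.845) and Osgep (0.839). For H2-Aa, H2-Ab1, Cd74 and H2-Eb1 the r with the mean of the other 7 class II genes was 0.891 to 0.937. It was 0.824 for H2-DMb1, 0.728 for H2-DMa, 0.586 for Ciita and 0.210 for H2-DMb2. As the closest genes outside the list were picked for their r out of all tested genes, no test is given.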

How the data were processed

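The build GRCm38.p6 and the tools STAR 2.7.9a and RSEM 1.3.0 are named, with no role or settings, in the submitters' processing notes. The library kit was directional, with 40 ng of input, per the labels' protocols. The data analysed here are 1 table of TPM values deposited by the authors, in which each library has the same total, so depth is unknown and no counting interval is given. A class of transcripts that takes more of the total lowers the TPM of all others.

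Columns were matched to samples by their descriptions, and groups came from the labels. The 13930 of 55487 genes that reached 1 TPM in 5 or more libraries were tested as log2(TPM + 1) with limma 3.58.1 in R 4.3.3 (lmFit and trended eBayes, genotype as the only term). Its p-values were 2-sided, and a call needed a Benjamini-Hochberg adjusted p under 0.05. Single values were compared by exact permutation (smallest p 0.00794) and correlations by 100000 resamples. Both scripts were checked on simulated data. Python 3.11.15 ran scipy 1.17.1 and pandas 2.3.3 on numpy 2.4.6, and figures were drawn with matplotlib 3.10.9. Positions came from GENCODE M21 (GRCm38), promoter windows from RefSeq, and transcript identity from blastn 2.17.0.

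The 8 genes, the lists and the tests were chosen with earlier results of these data known. The rule named all 8 genes, pathway genes by role, genes passing over all genes, and the 10 of highest r; a few of these genes are not reported here. Alternatives were other filters (no minimum, or a mean of at least 5 TPM), pseudocounts of 0.1 and 5, median log ratio rescaling, quantile normalization, the mouse number as a block, leaving out each library, macrophage or dendritic cell markers as a covariate, a threshold of 0.1, robust moderation, and correlations within genotype.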

Additional observations from a re-analysis of the deposited data

Results flagged for a closer look

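Within-group outliers were looked for by the gap of the highest or lowest library to its neighbour as a share of the group's range, in 34 groups of 5 libraries (the 8 genes, 8 ratios and their mean, in each genotype). Chance gives such a gap in about 1 group in 20. None of the 8 genes had such a gap on the log2(TPM + 1) scale, and 3 ratios did. H2-Ab1 over H2-Aa was 1.186 in S452A library 2, with the other S452A libraries at 0.964 to 1.0099. Cd74 over H2-Aa was 1.423 in S452A library 1, with the other S452A libraries at 1.03 to 1.13. In WT library 2 this ratio was 1.41. H2-DMb2 made up 11.35% of the summed H2-DMb1 and H2-DMb2 TPM in WT library 1, with the other WT libraries at 4.38 to 6.24%. WT library 1 also had the highest H2-Ob.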

How the results depend on the processing

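The count of class II genes that limma called between genotypes was 0 under all 21 alternatives, among them the replicate block, and the count over all genes was 1 under 20 of them and 0 with a mean of at least 5 TPM, where Gm36079 was filtered out (455 of 10087 genes had an unadjusted p under 0.05). The mouse numbers did not pair the libraries (correlations of same-numbered deviations -0.148 to 0.0743), and with the replicate block 14 pairs of class II genes reached an r of 0.7, against 13. That count ran from 8 to 16 when 1 library was left out, with 8 without S452A library 4; under every other alternative it was 11 to 16. Of 159 recomputed differences of single class II genes, 128 kept their direction and 31 reversed, and none passed (smallest adjusted p = 0.822).

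With quantile normalization the difference was -0.034 for H2-Ab1, -0.012 for H2-Eb1 and -0.022 for H2-DMb1. With the dendritic cell markers as a covariate it was -0.30 for H2-Aa, -0.39 for H2-Ab1, -0.38 for H2-Eb1, -0.26 for H2-DMb1 and -0.46 for Cd74; the cause was not tested. Leaving out 1 library gave -0.051 to 0.31 for H2-Aa, -0.15 to 0.28 for H2-Ab1, -0.10 to 0.28 for H2-Eb1, -0.15 to 0.042 for H2-DMa, -0.081 to 0.19 for H2-DMb1 and -0.061 to 0.30 for Cd74. The signs held under every alternative for H2-DMb2 and Ciita, except that Ciita was not tested with a mean of at least 5 TPM. The Ciita difference fell to 0.043 with the dendritic cell markers as a covariate, from 0.27 in the main fit. Depth is unknown, so the precision of Ciita and H2-DMb2, at a few TPM, cannot be stated.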
